A study of Rattus norvegicus with 6 samples.

Results

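The genes described here encode the platelet-derived growth factors (PDGF; Pdgfa, Pdgfb, Pdgfc, Pdgfd), their receptors (Pdgfra, Pdgfrb) and 4 ligands of the vascular endothelial growth factor (VEGF) family (Vegfa, Vegfb, Vegfc and the placental growth factor gene Pgf). They were chosen by name, and all 10 were found among the 16770 genes of the count table. Levels were compared between 2 inbred rat strains, the normotensive Wistar Kyoto rat (WKY) and the spontaneously hypertensive rat (SHR), in cultured cells grown from pieces of the proximal aorta of 3-month-old animals. No treatment is named. Both strains received the same medium, with 10% serum, 1% antibiotics and 1% endothelial growth supplement. These percentages do not show whether growth factors in the medium were alike between libraries or batches. Each strain had 3 libraries, with replicates 1 and 2 in batch 1 and replicate 3 in batch 2. The labels do not say what a batch stands for, nor whether each library came from its own animal. The p-values below therefore speak only to variation among the libraries made, some of which may be technical.

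PDGF ligands are secreted dimers that activate a pair of receptor tyrosine kinases. The A, B and C chains bind the alpha receptor, and the B and D chains bind the beta receptor. In the vessel wall, endothelial cells are the classical source of the B chain, while Pdgfrb marks mural cells (smooth muscle cells and pericytes) and Pdgfra marks fibroblasts. VEGF-A acts on endothelial cells through Kdr and Flt1, VEGF-B and placental growth factor bind Flt1, and VEGF-C binds Flt4, the receptor of lymphatic endothelium.

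Libraries held 18462032 to 19947286 estimated counts, a similar depth in both strains. Levels below are in CPM, the count scaled to a fixed library total. They are not divided by transcript length, so they are compared between libraries for a gene and not between genes. A gene with no count can be at up to 3 counts, or 0.15 to 0.19 CPM, given counting error. The first principal component, with 55% of the variance, set both batch 2 libraries (90.3 and 90.9) apart from the 4 batch 1 libraries (-55.2 to -34.9). The labels call the cells endothelial. Of 9 matched endothelial markers, 5 stayed below 1 CPM in every library, among them Cdh5, which was at 0 in 4 libraries and 0.10 CPM in the others, and Nos3 and Tie1. The summed level of the 9 was 18.7 to 37.6 CPM, of which 6.39 to 27.2 CPM came from Egfl7. Fibroblast markers summed to 5561 to 15568 CPM and smooth muscle markers to 749 to 8144 CPM. Of 4 matched leukocyte markers, Ptprc and Itgam were at 0 in all 6 libraries. The 4 together summed to 3.48 to 28.1 CPM, with the lowest sum in WKY replicate 3 and the highest in SHR replicate 3. In such bulk libraries, fewer cells of a type and less RNA per cell cannot be told apart.

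Between the strains, SHR libraries held more Pdgfra and Pdgfd transcript and less Pdgfa transcript in both batches, but no member passed edgeR's quasi-likelihood test once p-values were adjusted across the 12614 genes fitted. That is 0 of 9 tested members, beside 0.254% of all genes (32 genes, and 6 with the replicate number as a block). At an unadjusted p below 0.05, 2 of 9 members were higher in SHR, beside 6.09% of all genes, and 1 was lower, beside 7.18% (13.3% in either direction). DESeq2 called 2 of 9 higher, Pdgfd and Pdgfra, beside 2.85% of all genes (5.50% in either direction), and limma-trend called 0. For 3 of 9 members SHR lay on the same side of WKY in both batches, without overlap within a batch. This held for 27.9% of all genes (13.5% with SHR above and 14.4% with SHR below), so the members' share is near the background. Batch 2, with 1 library per strain, cannot show overlap. Over all 6 libraries only Pdgfra showed no overlap, 1 of 9, beside 4.51% of all genes with SHR higher and 9.81% in either direction. The plot of CPM by strain shows these levels with the batch of each library.

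**Figure D1:**
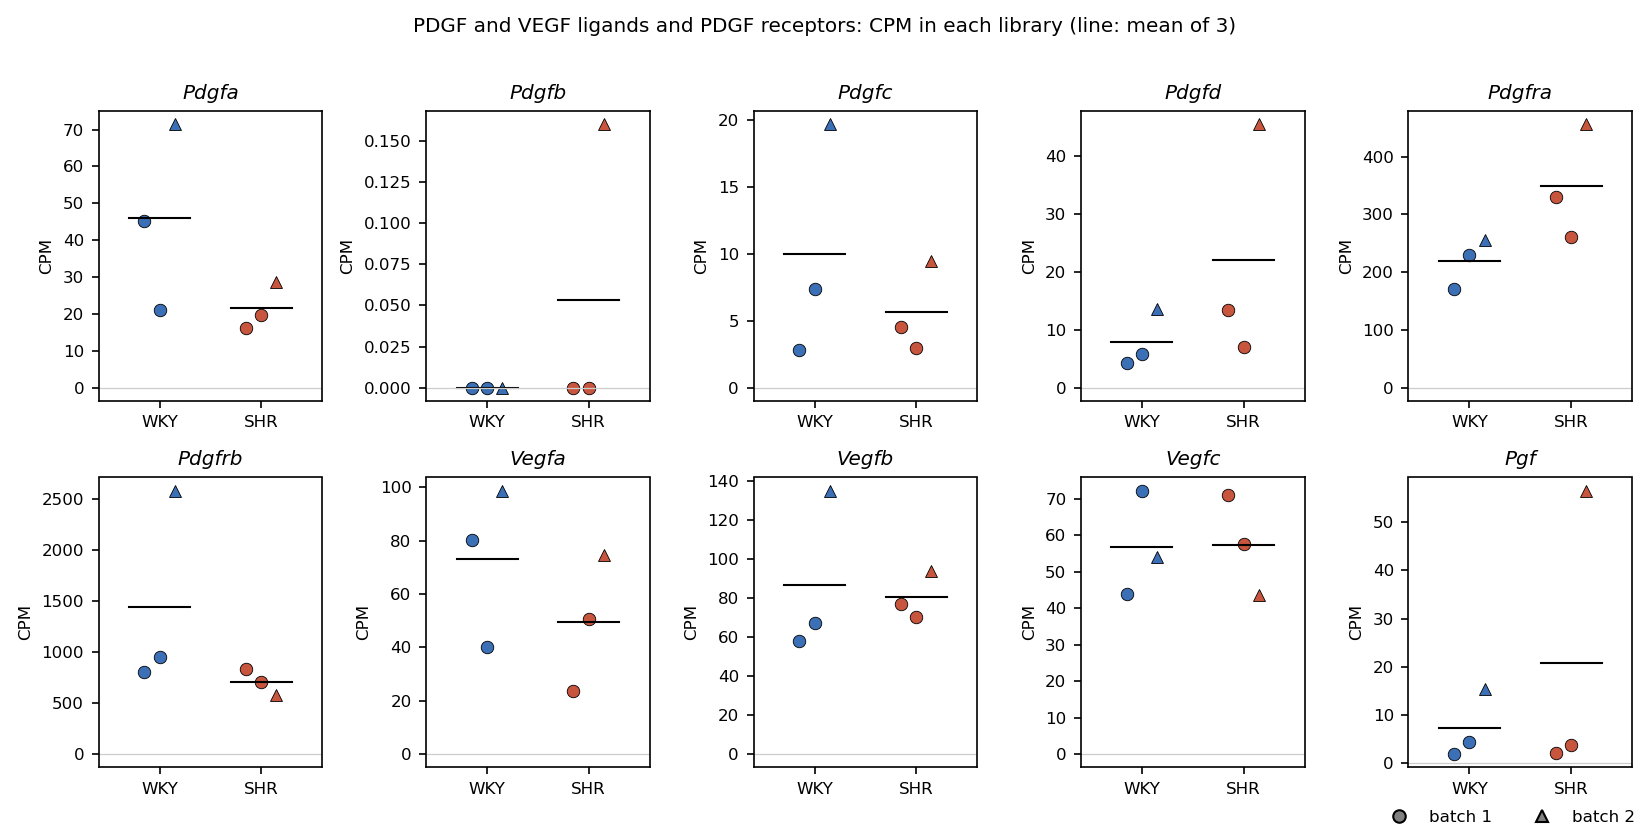
CPM (vertical axes, linear, each with its own range) of the 10 genes in the 3 WKY and 3 SHR libraries; circles are batch 1, triangles batch 2, and lines are the mean of 3. Pdgfra separates the strains (171 to 255 CPM in WKY, 261 to 456 CPM in SHR). Both batch 2 libraries lie above all batch 1 libraries for 4 of 9 tested members (Pgf, Pdgfd, Pdgfc and Vegfb). This held in that direction for 27.2% of all genes.

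Pdgfa encodes the A chain, which signals through the alpha receptor only. It stood at 45.2, 21.2 and 71.4 CPM in WKY replicates 1 to 3 and at 16.1, 19.8 and 28.6 CPM in the SHR replicates. SHR was lower in each batch, while the strains overlapped through WKY replicate 2, which lay below SHR replicate 3. The means were 45.9 ± 25.1 and 21.5 ± 6.46 CPM (SD, n = 3 each), with a log2 fold change of -1.03 (SE 0.31). That difference had an unadjusted p of 0.0178 and an edgeR adjusted p of 0.281, and DESeq2 gave an adjusted p of 0.0646. Without any 1 library the log2 fold change stayed between -1.33 and -0.72 and the edgeR adjusted p between 0.0667 and 0.596.

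Pdgfb, whose product recruits mural cells to endothelium, was at 0 counts in 5 libraries and at 3 counts in SHR replicate 3. Both strains were therefore at or under the limit that a count of 0 allows. The filter on low counts left Pdgfb out of the fit, and the exact two-sided permutation test of its CPM gave p = 1, where 3 against 3 libraries can reach 0.1 at the lowest.

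Pdgfd encodes the D chain, a latent ligand of the beta receptor that is activated by cleavage. Its levels were 4.29, 5.82 and 13.6 CPM in WKY and 13.4, 7.04 and 45.4 CPM in SHR. Within each batch every SHR library lay above every WKY library; across batches WKY replicate 3 reached the level of the batch 1 SHR libraries. The means of 7.89 ± 4.97 and 22.0 ± 20.6 CPM (SD, n = 3 each) differed by less than the SD in SHR, which holds the batch difference. With batch as a term the log2 fold change was 1.26 (SE 0.32), the largest of the 9 in either direction, with an unadjusted p of 0.0084 and an edgeR adjusted p of 0.235. DESeq2 called it (1.28, SE 0.37, adjusted p = 0.0165). The ratio was 0.95 on the log2 scale in batch 1 and 1.71 in batch 2, both from mean CPM plus 0.5.

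Pdgfc, the latent C chain that binds the alpha receptor once cleaved, had 2.83, 7.4 and 19.7 CPM in WKY and 4.57, 3.01 and 9.51 CPM in SHR. The strains overlapped in batch 1. Its log2 fold change of -0.64 (SE 0.42) had an edgeR adjusted p of 0.561.

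Pdgfra encodes the alpha receptor. It stood at 171, 230 and 255 CPM in the WKY replicates and at 330, 261 and 456 CPM in the SHR replicates. Each SHR library lay above each WKY library, although SHR replicate 2 exceeded WKY replicate 3 only slightly. The means were 219 ± 43.0 and 349 ± 98.8 CPM (SD, n = 3 each), a log2 fold change of 0.65 (SE 0.19) or 1.57-fold. The edgeR quasi-likelihood test gave an unadjusted p of 0.0159 and an adjusted p of 0.277, and DESeq2 called the gene (0.67, SE 0.21, adjusted p = 0.0306). Leaving out any 1 library kept the log2 fold change between 0.56 and 0.81, with no edgeR call. In the log2 values the authors deposited, in which both batches have the same mean, Pdgfra averaged 12.14 ± 0.15 for WKY and 12.59 ± 0.12 for SHR (SD, n = 3 each). These SDs leave out the difference between batches and come from the same libraries. Its estimated counts were not whole in 2 of 6 libraries, so some of its reads may have been divided with another gene. Of 8 fibroblast markers, edgeR called 1 higher in SHR (Tcf21), beside 0.103% of all genes, and DESeq2 called 5, beside 2.85%. Lum reached 85.8 to 599 CPM in SHR against 16.8 to 69.2 CPM in WKY. Their summed level overlapped between the strains (5561 to 15568 CPM in WKY and 11885 to 14889 CPM in SHR). The part of these markers in the Pdgfra difference was not tested.

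The 250 bases before the RefSeq start of Pdgfra are shown because its levels separated the strains. Capitals mark a CCAAT box, which lies on the opposite strand and so is written ATTGG. The window holds no GC box (GGGCGG on either strand) and no TATA box (TATAAA). Of the 33469 RefSeq windows of that length, 34% hold a CCAAT match on either strand, so the match is a description only.
Pdgfra, GRCr8 chr14:33408517-33408766, minus strand: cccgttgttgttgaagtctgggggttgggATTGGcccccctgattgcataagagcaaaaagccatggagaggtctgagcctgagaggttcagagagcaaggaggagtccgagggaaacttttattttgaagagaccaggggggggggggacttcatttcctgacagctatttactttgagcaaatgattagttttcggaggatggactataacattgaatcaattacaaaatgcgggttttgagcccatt

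Pdgfra lies in a row of receptor kinase genes that RefSeq (GRCr8) lists as Kdr, Kit and Pdgfra, next to each other. Kit encodes the receptor of stem cell factor, and Kdr the main signalling receptor of VEGF-A. Kit had 0, 0 and 1 counts in WKY and 21, 7 and 41 counts in SHR, so every SHR library lay above every WKY library. Kdr had 0, 1 and 0 counts in WKY and 13, 1 and 18 counts in SHR, with WKY replicate 2 and SHR replicate 2 alike. Over the strain, the ratio of scaled counts was 65.3 for Kit (95% exact interval 11.3 to 2620) and 30.3 for Kdr (5.06 to 1230). These intervals cover counting error within the pooled libraries only. Exact two-sided permutation tests over libraries gave p = 0.1 for Kit, the smallest value possible, and p = 0.2 for Kdr. Levels of both were at most 2.13 CPM. On the other side of Pdgfra lies Gsx2, which was not matched in the count table, and then Chic2. Chic2 overlapped between the strains (8.83 to 19.4 CPM in WKY and 11.7 to 19.6 CPM in SHR). Its fitted log2 fold change was 0.14 (SE 0.15, edgeR adjusted p = 0.72). These neighbours were examined after the values of Kit and Kdr were seen.

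**Figure D2:**
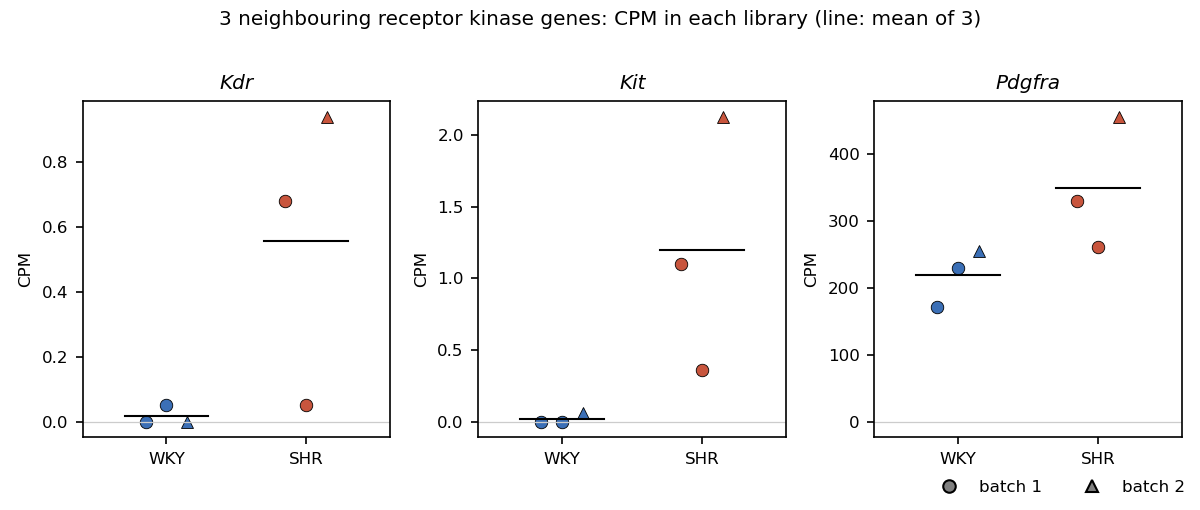
CPM (vertical axes, linear, each with its own range) of the neighbouring genes Kdr, Kit and Pdgfra in each library by strain; circles are batch 1, triangles batch 2, lines are the mean of 3. Kit and Pdgfra are higher in every SHR library than in any WKY library, but Kit stays at or below 2.13 CPM.

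Pdgfrb encodes the beta receptor. It had 807, 949 and 2583 CPM in WKY replicates 1 to 3 and 830, 707 and 581 CPM in the SHR replicates. In batch 1 the strains overlapped, and WKY replicate 3 held more than any other library. The means of 1446 ± 987 and 706 ± 124 CPM (SD, n = 3 each) differed by less than the SD in WKY, with a log2 fold change of -0.82 (SE 0.45, edgeR adjusted p = 0.495). Without WKY replicate 3 it was -0.19 (adjusted p = 0.764), and without SHR replicate 3 it was also -0.19 (adjusted p = 0.768); either fit compares the strains within batch 1 alone.

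Whether the strain difference itself differed between batches was tested with an interaction term. For Pdgfrb the difference in batch 2 was lower than that in batch 1 by a log2 value of -1.96 (SE 0.34). That term had an unadjusted p of 0.00219 and an adjusted p of 0.192 with edgeR, and an adjusted p of 6.62e-06 with DESeq2 (-1.97, SE 0.36). It rests on 1 library per strain in batch 2. Across all genes edgeR called 0 interactions (1596 at an unadjusted p below 0.05), while DESeq2 called 450, or 3.57%. DESeq2 called 1 member, Pdgfrb, beside 1.71% of all genes with a negative term. At an unadjusted edgeR p below 0.05, 2 of 9 had a negative term, Pdgfrb and Vegfb, beside 7.21% of all genes. The term for Vegfb was -0.77 (SE 0.26, edgeR adjusted p = 0.352).

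Several mural genes were also high in WKY replicate 3. The 8 smooth muscle markers summed to 8144 CPM there, against 1860 CPM in SHR replicate 3 and between 749 and 903 CPM in batch 1. Myh11, the smooth muscle myosin heavy chain, reached 345 CPM in WKY replicate 3 and 49.2 CPM in SHR replicate 3, and at most 6.4 CPM elsewhere. Unlike Pdgfrb, it was therefore above the batch 1 level in both batch 2 libraries. The pericyte proteoglycan gene Cspg4 (188 CPM), the potassium channel regulator Abcc9 (301 CPM) and Notch3, a receptor of mural cells (36.7 CPM), had their highest levels in the same library, whereas Rgs5 was at or near 0 in all 6. The 5 pericyte markers, which include Kcnj8 besides those named, summed to 530 CPM in WKY replicate 3 and 28.5 to 124 CPM in the others. The part of these genes in the Pdgfrb level was not tested.

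**Figure D3:**
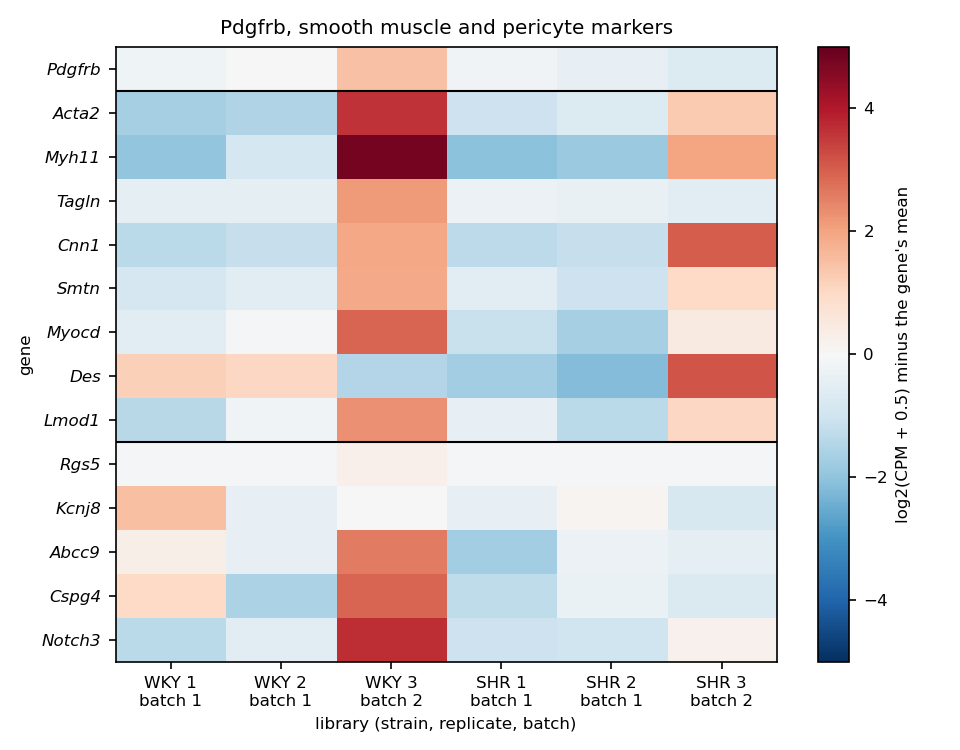
Colour gives log2(CPM + 0.5) minus the gene's mean over the 6 libraries (columns) for Pdgfrb, 8 smooth muscle markers and 5 pericyte markers (rows, separated by lines). WKY replicate 3 is high for Pdgfrb (2583 CPM), Acta2 (3630 CPM) and Notch3 (36.7 CPM), while SHR replicate 3 is high for Acta2 (731 CPM) but not for Pdgfrb (581 CPM).

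The balance of the receptors within a library was taken as the ratio of Pdgfra to Pdgfrb CPM. Gene length changes this ratio by the same factor in every library, so it can be set between libraries. It was 0.212, 0.243 and 0.0987 in WKY and 0.398, 0.369 and 0.785 in SHR. All SHR libraries lay above all WKY libraries, and the batch 2 libraries were the extremes on both sides. With no test made, these values are a description. The corresponding ratio of Pdgfa to Pdgfb has no reading, because Pdgfb was at or near 0.

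Among VEGF ligands no strain difference passed a test. Vegfa, the main growth factor of blood vessel endothelium and a target of hypoxia-inducible factors, had 80.2, 40.1 and 98.7 CPM in WKY and 23.5, 50.7 and 74.6 CPM in SHR. The strains overlapped in batch 1. Its log2 fold change was -0.60 (SE 0.39, edgeR adjusted p = 0.564). Vegfb, a ligand of Flt1, had 57.8, 67.0 and 135 CPM in WKY and 76.9, 70.5 and 93.7 CPM in SHR, higher in SHR in batch 1 and lower in batch 2. Its fitted difference was -0.01 (SE 0.20), and its sign depended on the scaling. In all 6 libraries its estimated counts were not whole, so part of its reads may have been divided with another gene. Vegfc, the lymphatic ligand, had 43.8, 72.2 and 53.9 CPM in WKY and 70.9, 57.7 and 43.6 CPM in SHR, nearly the same range. Its difference was 0.00 to 2 decimals with an SE of 0.23, and its sign depended on the scaling too.

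Pgf, the placental growth factor gene, was the member that varied most. It had 1.92, 4.49 and 15.4 CPM in WKY and 2.1, 3.82 and 56.5 CPM in SHR. Batch 1 levels overlapped, and SHR replicate 3 stood 3.68-fold above WKY replicate 3. The strain difference of 0.59 (SE 0.59, edgeR adjusted p = 0.708) became -0.11 without either batch 2 library. Set against Vegfa in the same library, Pgf had a ratio of 0.0239 to 0.156 in WKY and of 0.0893, 0.0755 and 0.756 in SHR, so SHR replicate 3 stood above the other 5 libraries. Mesothelial markers summed to 1197 CPM in that library and to 83.6 to 639 CPM in the others. The 83.6 CPM was in WKY replicate 3, which had the next highest Pgf level. The 639 CPM was in WKY replicate 1, which had the lowest. The part of these markers in the Pgf level was not tested.

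**Figure D4:**
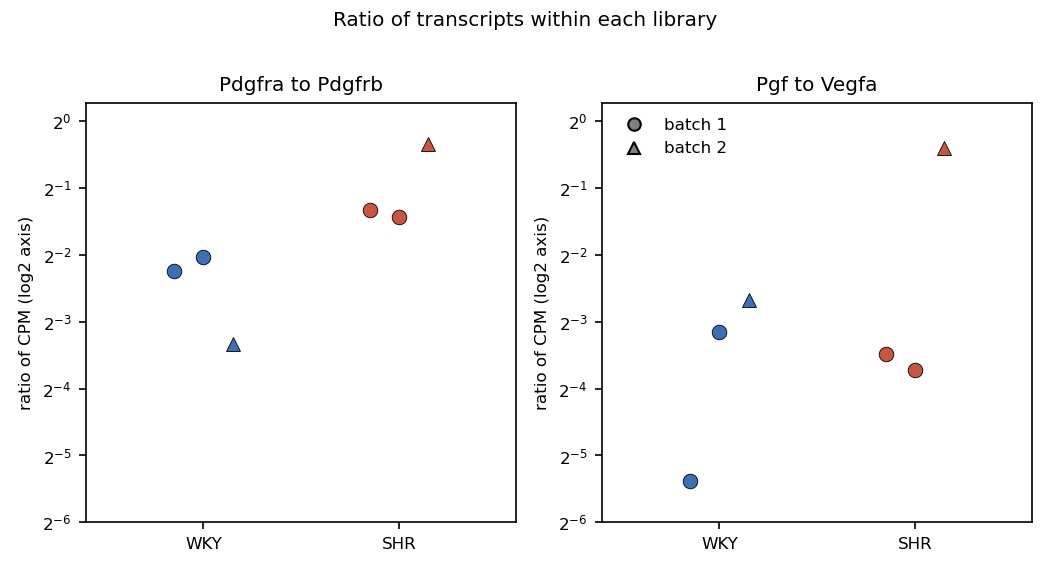
Ratio of CPM within each library (vertical axes, log2 scale) for Pdgfra to Pdgfrb and Pgf to Vegfa, by strain; circles are batch 1, triangles batch 2. The receptor ratio separates the strains (0.0987 to 0.243 in WKY, 0.369 to 0.785 in SHR), while the ligand ratio overlaps except for SHR replicate 3 at 0.756.

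The larger differences ran between batches. Of the 9 members tested, 4 rose in batch 2 (Pgf, Pdgfd, Pdgfc and Vegfb) and 0 fell by the edgeR quasi-likelihood test, beside 21.0% of all genes higher and 22.5% lower. For the same 4 members both batch 2 libraries lay above all 4 batch 1 libraries, which held in that direction for 27.2% of all genes. The median log2 fold change of the 9 was 0.86, against 0.00 for all genes tested, and 8 of 9 were positive, against 49.9% of all genes. DESeq2 called 6 higher, adding Pdgfa and Pdgfra, beside 25.9% of all genes. Batch 2 held 1 library of each strain, and what set the batches apart is not stated. Of 7 smooth muscle markers tested, edgeR called 5 higher in batch 2 and 0 lower; their part in these differences was not tested.

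Pgf rose most. Its mean was 3.08 ± 1.27 CPM in batch 1 (SD, n = 4) and its levels were 15.4 and 56.5 CPM in batch 2. The log2 fold change was 3.36 (SE 0.60, edgeR adjusted p = 0.0097), and the ratio was 4.79-fold in WKY and 19.1-fold in SHR. It was called without any 1 library, with a log2 fold change of 2.26 to 4.24. Pdgfd followed with 1.81 (SE 0.32, adjusted p = 0.00806), from 4.29 to 13.4 CPM in batch 1 to 13.6 and 45.4 CPM in batch 2. Its lower batch 2 value, in WKY, only just passed the highest of batch 1, in SHR; without SHR replicate 3 the edgeR adjusted p was 0.0682.

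Pdgfc rose by a log2 value of 1.65 (SE 0.42, edgeR adjusted p = 0.0258), from 4.45 ± 2.12 CPM (SD, n = 4) to 9.51 and 19.7 CPM. It was not called without WKY replicate 3 (adjusted p = 0.173), SHR replicate 2 (0.0801) or SHR replicate 3 (0.0689). Vegfb rose by 0.75 (SE 0.20, edgeR adjusted p = 0.0309), from 68.0 ± 7.97 CPM (SD, n = 4) to 93.7 and 135 CPM. Its call was lost without WKY replicate 1 (0.0728), WKY replicate 2 (0.0866), WKY replicate 3 (0.208, log2 fold change 0.34) or SHR replicate 2 (0.0786). Calls of both therefore depended on single libraries.

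The other members did not pass between batches. Pdgfa (0.90, SE 0.32, edgeR adjusted p = 0.068) passed without WKY replicate 1 (0.0393) or WKY replicate 2 (0.0415). Vegfa had 0.86 (SE 0.40, adjusted p = 0.136) and Pdgfra 0.49 (SE 0.20, adjusted p = 0.0988). Vegfc was the only member with a negative value (-0.33, SE 0.25, adjusted p = 0.332). Pdgfrb went in opposite directions in the strains, with a ratio of batch 2 to batch 1 of 2.94 in WKY and 0.756 in SHR. Its batch term was 0.69 (SE 0.46) and turned to -0.41 without WKY replicate 3, while without SHR replicate 3 it was 1.56 (edgeR adjusted p = 0.0104).

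**Figure D5:**
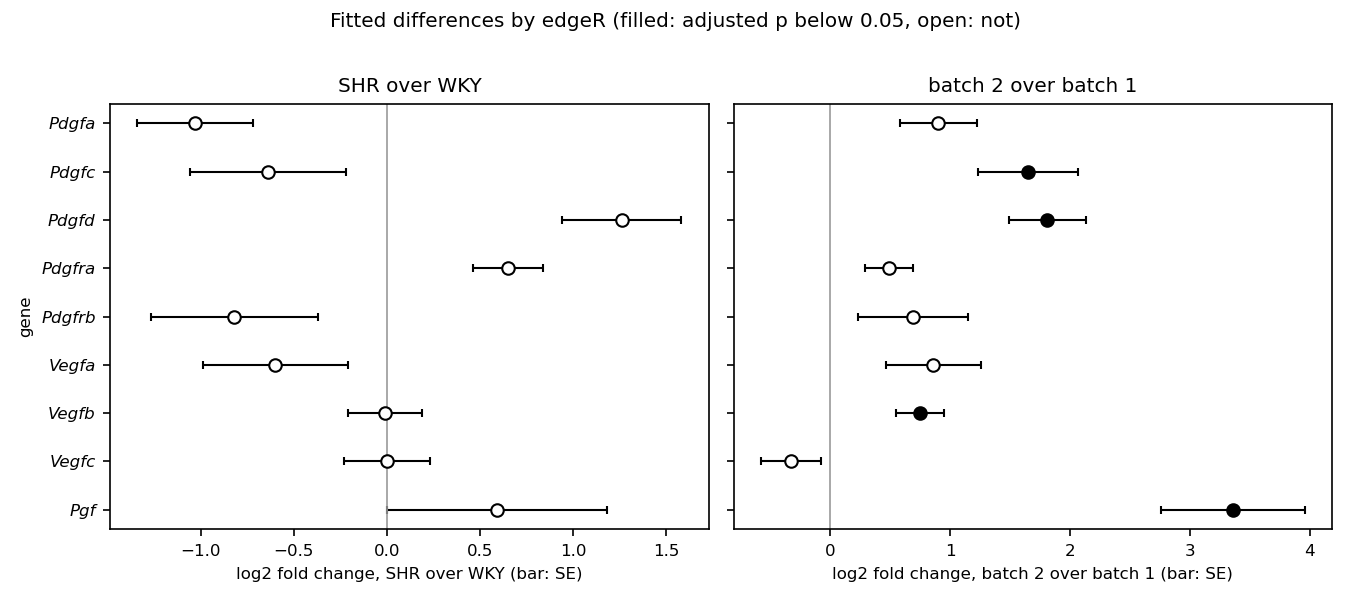
Log2 fold changes (horizontal axes) fitted by edgeR for the 9 tested members (rows), SHR over WKY on the left and batch 2 over batch 1 on the right, with bars for the SE; filled points have an adjusted p below 0.05. No strain difference is filled, whereas Pdgfc, Pdgfd, Vegfb and Pgf are filled between batches.

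Shown next are the windows before the RefSeq starts of the 4 genes that edgeR called higher in batch 2. Each holds the 250 bases upstream of the start, and capitals mark GC boxes, the sites of Sp-family factors (spelled GGGCGG, which is written CCGCCC where the match is on the opposite strand; adjoining matches run together). Vegfb has 4 matches, Pgf 2, Pdgfd 1 and Pdgfc none, and 30.5% of all 33469 windows hold at least 1. A core of the hypoxia response element (ACGTG, counted together with its variant GCGTG, on either strand) occurs once in the Vegfb, Pgf and Pdgfd windows and not in that of Pdgfc, beside 36.7% of all windows. The 4 windows thus share no motif searched. Matches describe letters and not binding.
Pdgfc, GRCr8 chr2:168614918-168615167, plus strand: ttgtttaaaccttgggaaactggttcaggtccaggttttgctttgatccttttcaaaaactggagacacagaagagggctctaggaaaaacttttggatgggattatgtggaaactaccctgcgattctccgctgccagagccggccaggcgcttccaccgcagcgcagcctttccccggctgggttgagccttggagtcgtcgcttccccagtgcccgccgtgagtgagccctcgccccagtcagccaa
Pdgfd, GRCr8 chr8:11773258-11773507, plus strand: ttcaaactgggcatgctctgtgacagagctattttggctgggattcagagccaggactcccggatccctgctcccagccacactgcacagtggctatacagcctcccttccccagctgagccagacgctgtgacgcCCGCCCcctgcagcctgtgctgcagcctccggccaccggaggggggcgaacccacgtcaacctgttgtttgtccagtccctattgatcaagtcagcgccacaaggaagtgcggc
Vegfb, GRCr8 chr1:213607153-213607402, minus strand: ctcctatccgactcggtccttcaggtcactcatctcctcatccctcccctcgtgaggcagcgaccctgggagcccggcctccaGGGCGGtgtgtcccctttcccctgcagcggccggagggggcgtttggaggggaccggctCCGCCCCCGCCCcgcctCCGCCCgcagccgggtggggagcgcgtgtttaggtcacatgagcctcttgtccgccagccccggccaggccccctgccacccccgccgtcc
Pgf, GRCr8 chr6:110557748-110557997, minus strand: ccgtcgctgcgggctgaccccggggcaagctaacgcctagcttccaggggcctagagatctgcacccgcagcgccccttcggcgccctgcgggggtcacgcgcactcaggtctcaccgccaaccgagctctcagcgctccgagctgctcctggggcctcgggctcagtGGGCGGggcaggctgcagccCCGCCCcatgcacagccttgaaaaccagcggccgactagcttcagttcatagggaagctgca

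The receptors and coreceptors of VEGF showed no call between strains. Of 5 genes 4 were tested, neither edgeR nor DESeq2 called any, and an unadjusted p below 0.05 was reached by 1 gene that was higher and 1 that was lower, beside 6.09% and 7.18% of all genes. Nrp2, a neuropilin that binds VEGF-C, had 115 to 148 CPM in WKY and 78.1 to 102 CPM in SHR without overlap (log2 fold change -0.61, SE 0.17, edgeR adjusted p = 0.266). Nrp1, the neuropilin of VEGF-A, had 0.58 (SE 0.21, adjusted p = 0.347) and rose in batch 2 (0.68, SE 0.22, adjusted p = 0.0496). Flt1 is the receptor shared by VEGF-A, VEGF-B and placental growth factor. It had 79.3, 41.8 and 7.03 CPM in WKY and 24.8, 40.1 and 29.0 CPM in SHR, so its lowest level fell in WKY replicate 3. Its strain difference changed sign between batches. The log2 ratio of SHR to WKY was -0.89 in batch 1 and 1.97 in batch 2, the latter from 1 library per strain. Flt4 was at 2.55 to 11.1 CPM (strain adjusted p = 0.424).

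Related receptor kinases were near 0, apart from Flt3, the receptor of a growth factor of blood progenitors. Flt3 had 1, 1 and 0 counts in WKY and 121, 53 and 140 counts in SHR. The ratio of scaled counts was 149 (95% exact interval 40.8 to 1230, counting error only). Its edgeR adjusted p was 0.0524 and its DESeq2 adjusted p 2.05e-07; the fitted fold change rests on the prior count and is not given. Csf1r, the macrophage receptor, stayed at or below 0.58 CPM. The remaining VEGF ligand gene Vegfd had 133, 99.8 and 163 CPM in WKY and 124, 65.5 and 330 CPM in SHR. Between strains neither edgeR (log2 fold change 0.14, SE 0.39, adjusted p = 0.905) nor DESeq2 (adjusted p = 0.919) called it. Between batches edgeR did not call it (1.19, SE 0.40, adjusted p = 0.0601), while DESeq2 did (1.23, SE 0.42, adjusted p = 0.00794).

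Genes for the processing of PDGF and VEGF ligands were next, namely proteases and the cofactor gene Ccbe1. None of 9 was called between strains by edgeR or DESeq2, while 1 higher and 1 lower gene reached an unadjusted p below 0.05, beside 6.09% and 7.18% of all genes. Between batches 2 rose and 2 fell, beside 21.0% and 22.5% of all genes. Plau, the urokinase gene whose product activates PDGF-D, fell by 2.65 on the log2 scale (SE 0.40, edgeR adjusted p = 0.00538), from 14.0 to 45.1 CPM in batch 1 to 4.23 and 4.42 CPM. The gene of that ligand, Pdgfd, rose in the same libraries. Plat, which encodes the tissue plasminogen activator that cleaves PDGF-C, had 180 to 570 CPM and was not called (batch adjusted p = 0.487). Furin and Pcsk5, proprotein convertases, rose in batch 2 (0.84, SE 0.13, and 2.88, SE 0.72; edgeR adjusted p = 0.00569 and 0.027), and the convertase gene Pcsk7 fell by 1.10 (SE 0.23).

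Of 24 matched genes for receptor-proximal signalling, 0 were called between strains by edgeR, although 3 reached an unadjusted p below 0.05, each lower in SHR, beside 7.18% of all genes. DESeq2 called 2 of the 24 lower, beside 2.65% of all genes. These were Rasa1, the Ras GTPase-activating protein that docks on PDGF receptors (86.9 to 103 CPM in WKY and 50.5 to 63.3 CPM in SHR, with a log2 fold change of -0.71, SE 0.13, edgeR adjusted p = 0.135), and the adaptor gene Shc1 (443 to 651 and 335 to 436 CPM; -0.46, SE 0.15, adjusted p = 0.296). Neither overlapped between strains. Between batches 9 of 24 rose and 6 fell by edgeR, beside 21.0% and 22.5% of all genes, so the share that fell was near the background. Stat5b rose (1.44, SE 0.16, adjusted p = 0.00244), and the phosphatase gene Ptpn11, also called SHP2, fell (-1.10, SE 0.16, edgeR adjusted p = 0.00409).

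Of 18 genes that dampen receptor signals, 0 were called between strains by edgeR, and 3 were higher at an unadjusted p below 0.05, beside 6.09% of all genes: Lrig1, Spry2 and Spry1. Spry2, a Sprouty inhibitor of Ras signalling, had 92.0 to 139 CPM in WKY and 149 to 179 CPM in SHR without overlap (log2 fold change 0.55, SE 0.16, edgeR adjusted p = 0.277) and was the only one of 18 called by DESeq2 (adjusted p = 0.0459), beside 2.85% of all genes called higher. Lrig1, which lowers growth factor receptor levels, had 22.4 to 52.3 and 58.1 to 64.9 CPM (0.86, SE 0.25, edgeR adjusted p = 0.272). Between batches 3 of 18 rose and 3 fell by edgeR, neither share above the 21.0% and 22.5% of all genes.

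Immediate early genes, the first transcripts that growth factor receptors induce, rose in batch 2 for 7 of 17 members and fell for 0, beside 21.0% and 22.5% of all genes. Their median log2 fold change was 1.00. Egr1, a zinc finger factor induced by serum and PDGF, had 16.5 to 69.8 CPM in batch 1 and 136 and 271 CPM in batch 2 (2.57, SE 0.24, edgeR adjusted p = 0.00177). Egr3 rose by 3.44 (SE 0.56), and Jund by 1.61 (SE 0.22). Between strains edgeR called 0 of 17, although 3 reached an unadjusted p below 0.05, each higher in SHR, beside 6.09% of all genes. Egr1 was the only 1 of the 17 that DESeq2 called, beside 2.85% of all genes called higher. Egr1 was higher in SHR within each batch, at 16.5 and 20.6 CPM in WKY against 69.8 and 45.0 CPM in SHR in batch 1 (fitted 2.67-fold, edgeR adjusted p = 0.126, DESeq2 adjusted p = 2.41e-05). Fos itself stayed between 0.71 and 5.98 CPM.

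Since Vegfa answers to oxygen sensing, those genes were set beside it. Of 8 sensors and factors, 0 were called between strains by either tool and 0 reached 0.05 in edgeR before adjustment. Between batches Arnt, the partner of hypoxia-inducible factors, rose (1.02, SE 0.13, edgeR adjusted p = 0.00309), while Vhl, Egln2 and Hif1a fell; these are 1 and 3 of 8, beside 21.0% and 22.5% of all genes. Among 10 tested hypoxia-inducible genes other than Vegfa, edgeR called 1 lower in SHR, beside 0.151% of all genes: the carbonic anhydrase gene Car9, with 234 to 403 CPM in WKY and 1.99 to 13.1 CPM in SHR (-6.00, SE 0.45, adjusted p = 0.0176). Vegfa overlapped between the strains in the same libraries. Adm, the vasodilator adrenomedullin, pointed the other way, at 46.9 to 189 CPM and 197 to 268 CPM (1.33, SE 0.54, edgeR adjusted p = 0.388). Between batches 4 of the 10 rose, P4ha1 and Kdm3a among them, and 2 fell, Pgk1 and Ldha, beside 21.0% and 22.5% of all genes, so the share that fell was near the background.

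Other growth factor genes of the vessel wall numbered 12. None was called between strains by edgeR; 1 higher and 3 lower genes reached an unadjusted p below 0.05, beside 6.09% and 7.18% of all genes. DESeq2 called 3 of the 12, each lower in SHR, beside 2.65% of all genes. These 3 were Tgfa, a ligand of the epidermal growth factor receptor (10.1 to 25.8 CPM in WKY and 2.18 to 3.82 CPM in SHR, with a log2 fold change of -2.52, SE 0.34, edgeR adjusted p = 0.0844), Fgf1 (1.00 to 4.79 and 0.41 to 0.62 CPM) and Ctgf. The last, a matricellular gene now named Ccn2, had 2374, 1187 and 4665 CPM in WKY and 761, 1189 and 694 CPM in SHR, with its highest level, like that of Pdgfrb, in WKY replicate 3.

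For each tested member the 2 genes with the most similar profile over the 6 libraries were found among 9993 genes, by the root mean square distance of log2 CPM centred on each gene's mean. All libraries are shared between the genes compared, and no test applies. Pdgfra lay closest to Dock9 (distance 0.090) and Nod1 (0.094), Vegfc to Copz2 (0.043) and Htra1 (0.073), and Vegfb to Npepl1 (0.050) and Sec24d (0.066). Pdgfd lay near Plekha4 (0.143) and Boc (0.202), and Pdgfa near Abtb2 (0.126) and Unc5b (0.160). Pdgfrb was nearest to Lpp (0.199), which had 228 CPM in WKY replicate 3 and 61.2 to 90.3 CPM elsewhere, and to Plxna1 (0.213). Vegfa was nearest to Ptpn3 (0.201) and Mgat5 (0.216), and Pdgfc to Heph (0.197) and Psen2 (0.234). Pgf had the largest distances, to Actg2 (0.402) and Klf13 (0.412). It also had the largest SD of log2 CPM (1.86), and this distance is not scaled by the SD. Actg2, the enteric smooth muscle actin gene, reached 27 CPM in SHR replicate 3, against 0.47 to 3.42 CPM elsewhere.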

How the data were processed

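Cells grown from the aorta of WKY and SHR rats were profiled by paired-end RNA sequencing (100 bp reads, DNBSEQ), 3 libraries per strain. The authors deposited estimated counts per gene, not normalized, of which 9% were not whole (tolerance 0.001). The build Rnor 6.0 and the tools RSEM 1.2.28, Bowtie2 2.4.4 and DESeq2 1.42.1 come from the submitters' processing notes, which give no roles. Strandedness of the counting was not stated, so overlapping genes could share reads. The authors also deposited log2 values, in which, from the values, both batches have the same mean in every gene (largest difference 7.5e-09); how they were made was not stated. Depth was 18462032 to 19947286 counts per library.

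Estimated counts were rounded to whole numbers. Genes were kept by filterByExpr of edgeR 4.0.16 by strain, leaving 12614, and scaled by TMM factors (0.873 to 1.068). Strain and batch were terms of 1 quasi-likelihood fit (glmQLFit with robust dispersion, glmQLFTest, R 4.3.3, 3 residual degrees of freedom), and the interaction was added in another (2 residual degrees of freedom). P-values were two-sided and adjusted by Benjamini-Hochberg over all genes tested, with calls below 0.05. SE is the log2 fold change divided by the root of F. DESeq2 1.42.0 and limma 3.58.1 (prior count 2), other scalings, filters and terms, and each library left out were alternatives. Tested on simulated data of the strain comparison (3 simulations of 12614 genes), the edgeR test recovered 27.3% of genes changed 2-fold and 85% of those changed 4-fold. For the batch comparison it recovered 19.7% and 79.3%. The changed genes were drawn only from those with higher mean counts, so recovery of low-count genes was not simulated.

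Deviations from the strain mean of same-numbered libraries correlated across genes at 0.30, 0.40 and 0.66, which all pass the 0.1 set for pairing. These values include the batch: libraries with numbers 1 and 2 correlated across numbers at 0.48 and 0.49, and after the batch term same-numbered libraries correlated at -0.43 and -0.34 for numbers 1 and 2 (for number 3, the only pair of its batch, the fit fixes the value at -1). The strain fit held batch as a term, with the replicate block as an alternative. The members and the 18 lists (164 genes, 157 matched by symbol, 2 by gene identifier, 5 not matched) were chosen with earlier results of these data known. Named were all members, and of each list genes called between strains and the 3 with the smallest strain or batch p among those with a mean of at least 1 CPM; Kit, Kdr, Chic2, Plat, Fos, Ldha, Csf1r and the marker genes were added after their values were seen. The result of 1 gene that the rule names is not reported here. Promoter windows came from RefSeq (GRCr8), with 9 of 10 members matched. No library duplicated another: pairs gave chi-square values of 44.8 to 440 per gene.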

Additional observations from a re-analysis of the deposited data

Results flagged for a closer look

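The strain difference of Pdgfrb differed between batches by DESeq2's interaction test, with a log2 value of -1.97 (SE 0.36, adjusted p = 6.62e-06), and not by edgeR (-1.96, SE 0.34, adjusted p = 0.192). Pdgfrb was near-equal in the strains in batch 1 (log2 ratio -0.19) and lower in SHR in batch 2 (-2.15, from 1 library each), through the 2583 CPM of WKY replicate 3. Without any 1 batch 1 library the edgeR value lay between -2.09 and -1.80 and its adjusted p between 0.0599 and 0.543. Within batch 1, where 4 libraries allow a check for a lone extreme value, no member had one.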

How the results depend on the processing

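Between strains, edgeR called 32 genes, against 694 with DESeq2, 2 without the batch term, 6 with the replicate block and 0 to 65 with 1 library left out (4 without WKY replicate 1, 65 without WKY replicate 2, 20 without WKY replicate 3, 0 without SHR replicate 1, where 1135 genes had an unadjusted p below 0.05, and 0 without SHR replicate 2, 1513 genes). Members called between strains went from 0 to 2 with DESeq2 and stayed at 0 in every other alternative run; the replicate block changed no member's call. Members called between batches numbered 4, and 2 to 4 with 1 library left out. Interactions went from 0 genes to 450 with DESeq2 and 4 without the filter, and to between 0 and 247 with 1 batch 1 library left out (188 without WKY replicate 1, 247 without WKY replicate 2), chosen after seeing the data; members among them went from 0 to 1 with DESeq2. The cause of these changes was not tested. Signs turned only for values near 0 or resting on 1 library. For the strain difference of Vegfc they turned to 0.02 (DESeq2, RLE, limma-trend, replicate block, no batch term), 0.01 (no filter), 0.03 (upper-quartile factors), 0.15 (batch 1 only) and to as much as 0.18 with 1 library left out (range -0.23 to 0.18). For Vegfb they turned to 0.00 (DESeq2 and RLE), 0.01 (upper-quartile) and 0.24 (batch 1 only, range -0.16 to 0.24 with 1 library left out). Pgf turned to -0.12 in batch 1 only (range -0.11 to 1.21 with 1 library left out). The batch difference of Pdgfrb ranged from -0.41 to 1.56, and the interaction of Vegfa from -0.30 to 0.94 and of Pdgfa from -1.09 to 0.00, with 1 library left out. Log2 ratios of Pdgfa to Pdgfb, which rest on the pseudocount, moved from 5.05 to 7.17 with 0.5 CPM added to 4.09 to 6.18 with 1 CPM. No paired analysis was possible for the batch difference because each replicate number lies in 1 batch. Pdgfb was at or under the limit that a count of 0 allows, and its strain difference was not detectable at this depth.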
